A study of Mus musculus with 6 samples.

Results

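The genes of the NF-κB subunits and their IκB inhibitors were followed in cultures labelled as mouse bone marrow stromal cells (BMSCs), treated with retinoic acid (RA). The libraries of these cultures also held macrophage marker transcripts at high levels. These were 10 of the 25722 genes listed, chosen by symbol: the canonical subunits Rela, Rel and Nfkb1, the noncanonical subunits Relb and Nfkb2, the cytoplasmic inhibitors Nfkbia, Nfkbib and Nfkbie, and the nuclear IκB proteins Nfkbiz and Bcl3. All 10 passed the filter on low counts. None differed between RA-treated and control BMSCs at the threshold used for all genes, which only 0.0433% of the 13842 genes tested passed. The lowest levels after RA, relative to control, were those of Nfkbie and Nfkb2, at 63.1% and 66.9% of control in the fit, while Nfkb1 was at 96.5% and Rel at 107%.

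NF-κB transcription factors are dimers of Rel-family proteins that lie in the cytoplasm of resting cells, held there by IκB proteins. In the canonical pathway, the IKK kinases mark IκB for degradation, and dimers of p65 (Rela), c-Rel (Rel) and p50 (made from Nfkb1) enter the nucleus. In the noncanonical pathway, NIK (Map3k14) and IKKα (Chuk) drive the processing of the Nfkb2 product p100 to p52, which acts with RelB. Several genes of both arms, among them Nfkbia, Nfkb2, Relb and Bcl3, are themselves known NF-κB targets, so that the pathway feeds back on its own components. In stromal cells and macrophages it drives chemokine and cytokine genes. These counts measure RNA only: they hold no value on phosphorylation, on nuclear entry or on p100 processing.

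The RNA libraries came from wild-type C57BL/6 BMSCs given no cytokine, of which 3 had the solvent DMSO (control) and 3 all-trans RA (ATRA). Per the labels, RA was at 1 µM for 48 h, and all cells grew in 5% O2 and 5% CO2 with 20% serum and 10 µM ROCK inhibitor. The study's methods describe adherent marrow cells used at low passage, and they give a lower RA concentration and a shorter time than the labels. The labels speak of 2 biological replicates although there were 3 libraries a group, and the number of cultures or mice behind them is not given, so p-values measure the spread between these libraries, which may be partly technical. Values are CPM, counts brought to a common library total with TMM scaling, and log2 fold changes come from edgeR's quasi-likelihood test with adjustment over 13842 genes.

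Libraries held between 14737636 and 18511905 counts, so that 3 counts were worth 0.162 to 0.204 CPM, and every subunit and inhibitor gene lay far above this level. Cyp26b1, an RA-degrading enzyme and RA target, had between 4.68 and 5.96 CPM in the controls and between 87.1 and 124 CPM after RA. Over the 1000 genes of highest variance, the leading principal component (57.2%) followed not the treatment but a split of DMSO2, ATRA1 and ATRA2 (library set 1) from DMSO1, DMSO3 and ATRA3 (set 2). The labels name no batch for these sets, which were found in the counts themselves. The cells were labelled BM-MSCs, yet 14 of 14 macrophage markers were tested and summed to 18805 to 20989 CPM in the controls and 19014 to 20048 CPM after RA. The 14 mesenchymal markers summed to 2003 to 3905 CPM in the controls and 1507 to 2993 CPM after RA. Of these, 12 were tested, among them Cxcl12 (368 to 578 CPM over all libraries), Col1a1 (414 to 1648 CPM) and Pdgfrb (60.3 to 140 CPM), while Thy1 and Nt5e were below the filter, with at most 7 and 21 counts in a library. Neutrophil, B cell, T cell and erythroid markers each summed to at most 5.53 CPM, and endothelial markers to at most 17.2 CPM. Which cells the NF-κB transcripts came from was not tested, and fewer cells of a type and less RNA per cell cannot be told apart.

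Of the 10 genes, 0 passed an adjusted p of 0.05 with at least a 1.5-fold change in edgeR, beside 0.0433% of all genes tested, and 0 passed in DESeq2, beside 0.983%. At an unadjusted p of 0.05, Nfkb2 and Nfkbie passed in both tools, 2 of 10, beside 5.25% of all genes in edgeR (2.36% on the lower side) and 5.93% in DESeq2. The log2 fold change was below 0 for 9 of 10 genes, beside 52.7% of all genes. The median was -0.33, against -0.018 over all genes tested. The count of 2 rested on which libraries were used. Without ATRA3 it was 6 (Rela, Relb, Nfkb2, Nfkbie, Nfkbiz and Bcl3), while the share over all genes was also higher, at 14.4%. Without DMSO2 it was 2, beside 8.21% of all genes. It was 1, Nfkbie each time, without DMSO1, DMSO3, ATRA1 or ATRA2, beside 2.85%, 3.49%, 4.44% and 2.94% of all genes. The RA-treated libraries all lay below the controls for 2 of 10 genes, Nfkbib and Nfkbie, beside 6.87% of all genes (12.6% in either direction).

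**Figure D1:**
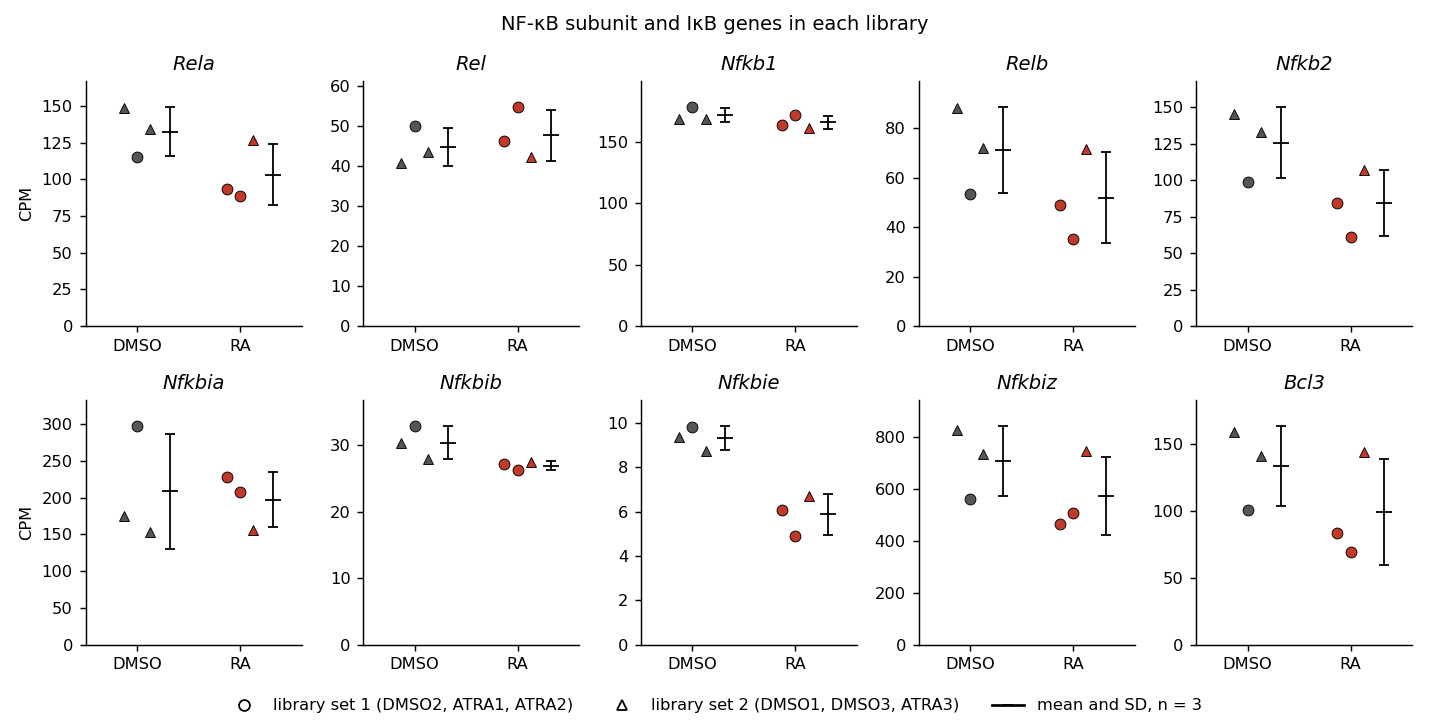
CPM (vertical axes, from 0, a scale of its own for each gene) of the 10 genes in each of the 3 DMSO and 3 RA libraries, with circles for library set 1, triangles for set 2, and the mean and SD of each group as bars. The groups are apart for Nfkbie and Nfkbib, while for Rela, Relb, Nfkbiz and Bcl3 the ATRA3 triangle stands near the DMSO triangles.

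Rela (ENSMUSG00000024927, chr19:5637483-5648130 of GRCm38, plus strand) encodes p65, the main transactivating subunit of the canonical pathway. Its level was 148, 115 and 134 CPM in DMSO1 to DMSO3 and 93.6, 89.0 and 127 CPM in ATRA1 to ATRA3. ATRA1 and ATRA2 were below every control, but ATRA3 lay between DMSO2 and DMSO3, so the groups overlapped. The log2 fold change was -0.36 (SE 0.18, 95% interval -0.78 to 0.060, edgeR adjusted p = 0.795). Within set 1 the difference in log2 CPM was -0.34, and within set 2 it was -0.15.

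Rel (ENSMUSG00000020275, chr11:23736847-23770970, minus strand) encodes c-Rel, a subunit best known from lymphoid and myeloid cells. It had 40.8, 50.1 and 43.7 CPM in the controls and 46.4, 54.8 and 42.2 CPM after RA. The libraries of set 1 were the higher ones in both treatments and the groups overlapped. Its log2 fold change was 0.092 (SE 0.15, 95% interval -0.26 to 0.44), which allows at most a 1.19-fold lower or a 1.36-fold higher level. The sign depended on 1 library, since without ATRA2 the value was -0.017, and within sets the differences were 0.0094 and 0.0015.

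Nfkb1 (ENSMUSG00000028163, chr3:135584655-135691547, minus strand) encodes p105, the precursor of p50. Its level was 169, 178 and 169 CPM in the controls and 164, 172 and 162 CPM after RA. On the log2 scale this was the least spread of the 10 genes over the 6 libraries (root mean square 0.046). The groups overlapped, through ATRA2. The interval of its log2 fold change (-0.051, SE 0.099) ran from -0.29 to 0.19, so a level more than 1.22-fold lower or 1.14-fold higher lay outside it. Among the canonical subunits, then, the fit without a covariate put the p50 precursor nearest to 0 and p65 furthest from 0. With library set as a covariate, Rel (0.0073) was nearer to 0 than Nfkb1 (-0.074). No test of a difference between the genes was made.

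Nfkb2 (ENSMUSG00000025225, chr19:46304320-46312385, plus strand) encodes p100, which both restrains RelB and is the source of p52. Its level was 146, 98.7 and 133 CPM in the controls and 84.2, 61.3 and 107 CPM after RA. ATRA3 was above DMSO2, so the groups overlapped, but in each library set every RA library was below every control. Its log2 fold change of -0.58 (SE 0.24, 95% interval -1.15 to -0.010), a 1.49-fold lower level, had an edgeR unadjusted p of 0.0469 and an adjusted p of 0.795. Among all genes tested, this value stood at the 4.48 percentile. Within sets the differences were close, -0.46 in set 1 and -0.38 in set 2. Exons of Psd and AC114539.1 on the other strand overlap 299 and 531 bases of its exons; whether counting used strand is not given, and these neighbours had means of 86.2 and 126 counts against 1652 for Nfkb2.

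Relb (ENSMUSG00000002983, chr7:19606217-19629438, minus strand) encodes the partner of p52. Its level was 88.0, 53.4 and 72.1 CPM in the controls and 48.7, 35.1 and 71.6 CPM after RA. The 2 set 1 libraries treated with RA were the lowest, and ATRA3 stood within 1 CPM of DMSO3. For Relb the log2 fold change was -0.46 (SE 0.30, 95% interval -1.16 to 0.25, edgeR adjusted p = 0.795). This interval allows a level up to 2.24-fold lower or 1.19-fold higher. Single libraries moved the value, which was -0.76 without ATRA3, -0.24 without ATRA2 and -0.28 without DMSO1. Within sets the differences were -0.37 and -0.15, close to those of Rela.

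**Figure D2:**
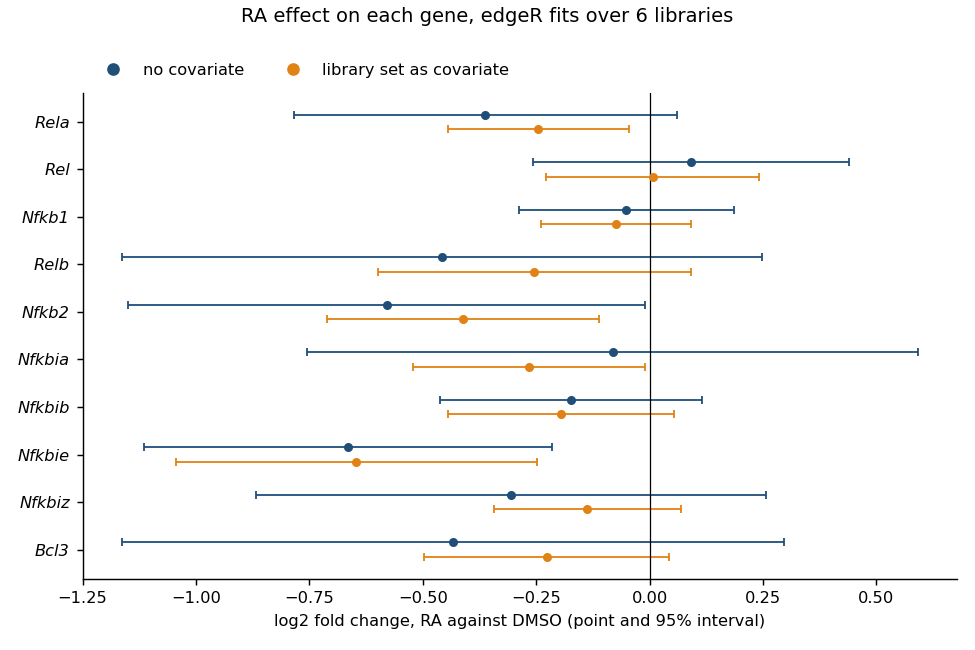
Log2 fold change of RA against DMSO with its 95% interval (horizontal axis) for each gene, from edgeR fits over 6 libraries without a covariate (blue) and with library set as a covariate (orange). Without the covariate, the interval lies below 0 for Nfkb2 and Nfkbie only. With it, the intervals of Rela and Nfkbia lie below 0 as well.

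Levels per length put the subunits on one scale, counts per kilobase of exon scaled to the same total in each library (TPM). The noncanonical subunits (Relb + Nfkb2) over the canonical ones (Rela + Rel + Nfkb1) gave a ratio of 0.803, 0.598 and 0.748 in the controls and 0.615, 0.443 and 0.691 after RA. The groups overlapped, and ATRA1 was slightly above DMSO2, the control of its own set. The means were 0.717 ± 0.106 (SD, n = 3) in the controls and 0.583 ± 0.127 (SD, n = 3) after RA. The 3 ratios of single genes given here and with Nfkbia were added after the values were seen. Relb over Rela was 0.469, 0.367 and 0.425 in the controls and 0.412, 0.312 and 0.446 after RA. In set 1 ATRA1 was above DMSO2 and ATRA2 below it, and in set 2 ATRA3 lay between both controls. Nfkb2 over Nfkb1 was 2.27, 1.46 and 2.07 in the controls and 1.35, 0.936 and 1.74 after RA. For that ratio the RA libraries were all below the controls of their own set. The exon union of Nfkb1 (12061 bases) is much longer than its longest transcript (4149 bases). On the length of the longest transcript the same ratio was 0.930, 0.597 and 0.847 in the controls and 0.553, 0.384 and 0.712 after RA.

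**Figure D3:**
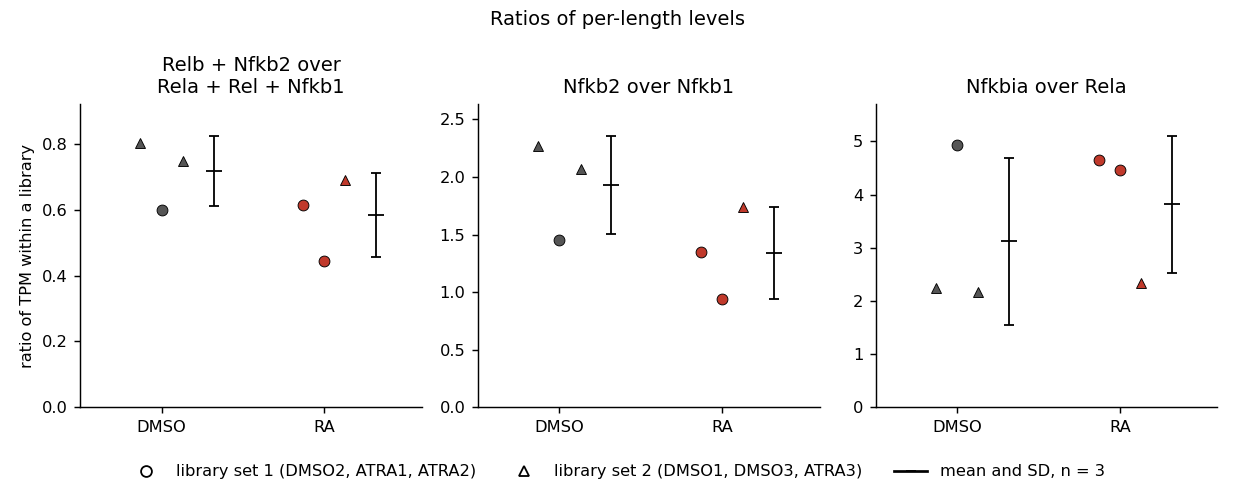
Ratios of TPM within each library (vertical axes, from 0) for the noncanonical over the canonical subunits, Nfkb2 over Nfkb1, and Nfkbia over Rela, with circles for set 1, triangles for set 2, and the mean and SD of 3 libraries as bars. In the middle panel the RA points lie below the DMSO points of the same shape, and in the left panel all but ATRA1 do. In the right panel the circles lie between 4.46 and 4.93 and the triangles between 2.17 and 2.34, whatever the treatment.

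Nfkbia (ENSMUSG00000021025, chr12:55489410-55492647, minus strand) encodes IκBα, the inhibitor that the canonical pathway degrades and quickly makes anew. Its level was 175, 298 and 153 CPM in the controls and 228, 208 and 155 CPM after RA. DMSO2 was the highest library, the set 2 libraries were the lowest, and ATRA1 and ATRA2 lay in between. The pooled log2 fold change was -0.082 (SE 0.28, 95% interval -0.75 to 0.59, edgeR adjusted p = 0.947). Its sign rested on single libraries: without DMSO2 it was 0.28 and without ATRA3 it was 0.062. Within set 1 the difference was -0.45, all of it against the 1 control DMSO2, and within set 2 it was -0.071. The difference between control libraries of the 2 sets, 0.87 in log2 CPM, was larger than either difference with RA. In TPM, Nfkbia over Rela was 2.25, 4.93 and 2.17 in the controls and 4.64, 4.46 and 2.34 after RA, so the ratio followed the library sets and not the treatment.

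Nfkbib (ENSMUSG00000030595, chr7:28758251-28767512, minus strand) encodes IκBβ, a more slowly degraded inhibitor. It had 30.3, 32.9 and 27.9 CPM in the controls and 27.1, 26.2 and 27.4 CPM after RA. The groups did not overlap, but DMSO3 and ATRA3 were less than 1 CPM apart, and with scaling by library totals alone the groups overlapped. An exact two-sided permutation test of its log2 CPM gave p = 0.1, the smallest that 3 libraries against 3 allow. Its log2 fold change was -0.17 (SE 0.12, 95% interval -0.46 to 0.12), and -0.097 without DMSO2. Its exons share 42 bases with Sirt2 and 314 with Ccer2 on the other strand. Ccer2 had no counts, and Sirt2 had a mean of 1725 counts against 460 for Nfkbib.

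Nfkbie (ENSMUSG00000023947, chr17:45555703-45563169, plus strand) encodes IκBε, an inhibitor that holds p65 and c-Rel dimers. It was the lowest of the 10 genes, with 134, 185 and 127 counts in the controls and 109, 77 and 98 after RA. These were 9.39, 9.84 and 8.73 CPM in the controls and 6.06, 4.88 and 6.69 CPM after RA. Every RA library was below every control, the gap being larger than the range of either group. A log2 fold change of -0.67 (SE 0.19, 95% interval -1.12 to -0.22), a 1.59-fold lower level, put it at the 3.20 percentile of the genes tested. The edgeR unadjusted p was 0.0103 and the adjusted p 0.660, so the call fails the correction over all genes. The exact two-sided permutation p was 0.1, again the smallest possible. Within set 1 the difference was -0.84 and within set 2 it was -0.43.

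As a group, the cytoplasmic inhibitors followed the most abundant of them. The summed TPM of Nfkbia, Nfkbib and Nfkbie over that of the 5 subunits was 1.03, 2.16 and 0.996 in the controls and 1.92, 1.96 and 1.09 after RA. The 3 values near 2 belonged to set 1 and the 3 near 1 to set 2.

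Nfkbiz (ENSMUSG00000035356, chr16:55811375-55838899, minus strand) encodes IκBζ, a nuclear cofactor of p50 at secondary response genes such as Il6. Its level was 826, 560 and 734 CPM in the controls and 465, 504 and 745 CPM after RA. ATRA3 was above DMSO3 and DMSO2, so the groups overlapped. The log2 fold change was -0.31 (SE 0.24, 95% interval -0.87 to 0.26), with -0.21 within set 1 and -0.063 within set 2. It was -0.54 without ATRA3, -0.15 without ATRA1 and -0.18 without DMSO1.

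Bcl3 (ENSMUSG00000053175, chr7:19808462-19822770, minus strand) encodes a nuclear IκB protein that acts with p50 and p52 homodimers. Its level was 159, 100 and 141 CPM in the controls and 83.5, 69.4 and 144 CPM after RA. ATRA1 and ATRA2 were the lowest, while ATRA3 was above both DMSO2 and DMSO3. In the fit Bcl3 was at -0.43 (log2, SE 0.31, 95% interval -1.16 to 0.30), with -0.40 within set 1 and -0.060 within set 2. It was -0.80 without ATRA3 and -0.23 without ATRA2. Gm16175, on the other strand over 161 of its exon bases, had no counts.

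Levels in the control libraries, in which macrophage markers summed above mesenchymal ones, were compared per length in TPM. They ran from Nfkbiz (493 ± 81.9) and Nfkbia (458 ± 187) through Bcl3 (189 ± 37.8), Rela (151 ± 15.2), Nfkb2 (96.0 ± 16.0), Relb (64.1 ± 14.1), Nfkb1 (50.2 ± 3.15), Nfkbib (49.3 ± 5.48) and Rel (21.1 ± 2.90) to Nfkbie (10.8 ± 0.935, SD, n = 3). A nuclear IκB protein and IκBα thus had the highest transcript levels of the family, and IκBε the lowest. Neighbours whose control libraries overlapped were Nfkbiz and Nfkbia, Bcl3 and Rela, Relb and Nfkb1, and Nfkb1 and Nfkbib. The place of Nfkb1 depended on the length used, since its mean was 111 TPM on its longest transcript of 4149 bases in place of the exon union of 12061 bases. After RA the means ran in nearly the same order, led by Nfkbia (433 ± 92.2) and Nfkbiz (401 ± 102), and Nfkb1 (48.6 ± 1.69) stood above Relb (47.2 ± 16.8), with overlap in both pairs.

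The 2 library sets differed in these genes without any RA. DMSO2 was below the mean of DMSO1 and DMSO3 in log2 CPM by 0.58 for Bcl3, 0.57 for Relb, 0.49 for Nfkb2, 0.48 for Nfkbiz and 0.29 for Rela. It was above them by 0.87 for Nfkbia, 0.25 for Rel, 0.18 for Nfkbib, 0.12 for Nfkbie and 0.079 for Nfkb1. With 1 control library in set 1, this difference has no replicate. Set 1 held 2 of the 3 RA libraries, so treatment and set were partly confounded in the pooled values. The summed macrophage markers did not part the sets, with 19014 to 20048 CPM in set 1 and 18805 to 20989 CPM in set 2, but single markers did. For 10 of 14 every set 1 library was below every set 2 library, as for Mrc1 (105 to 191 against 331 to 449 CPM). For 2 it was above, namely Lyz2 (8722 to 9779 against 5543 to 6629 CPM) and Fcgr1 (117 to 137 against 72.9 to 87.5 CPM). Of 14 mesenchymal markers 6 were above in set 1 and 0 below, and their sum was 1981 to 3905 CPM in set 1 and 1507 to 2170 CPM in set 2. The part of either cell type in the values of the NF-κB genes was not tested.

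In both sets, RA libraries had lower mean values for 9 of 10 genes, beside 35.0% of all genes tested, Rel being the exception. The median difference was -0.35 in set 1 and -0.077 in set 2, against -0.0022 and -0.018 over all genes. A treatment by set interaction passed an adjusted p of 0.05 in edgeR for 0 of the 10 genes, beside 0% of all genes, and an unadjusted p of 0.05 for 0, beside 3.74%. The interactions furthest from 0 (set 2 minus set 1, log2) were 0.41 for Nfkbie (SE 0.34) and 0.38 for Nfkbia (SE 0.20), with an edgeR adjusted p of 0.997 for both. That fit leaves few residual degrees of freedom and lets the lone libraries vary like the others, so a difference of this size was within its error.

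**Figure D4:**
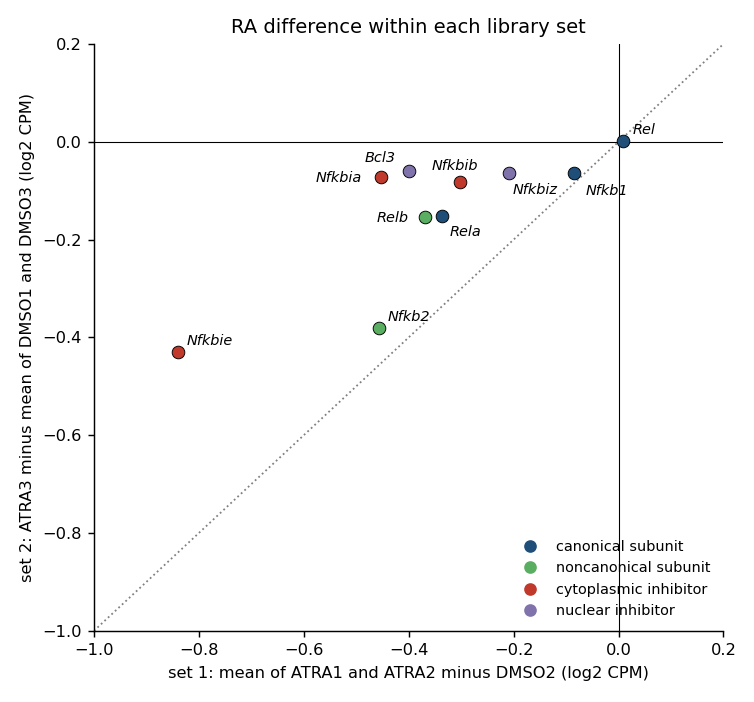
Difference in log2 CPM between RA and DMSO libraries within set 1 (horizontal axis) and within set 2 (vertical axis) for each gene, coloured by role, with a dotted line where both are equal. Nfkbie (-0.84 and -0.43) and Nfkb2 (-0.46 and -0.38) lie furthest from 0 in set 2, Rel lies at 0, and the remaining genes lie at -0.15 or nearer to 0 in set 2. Each set has 1 library of one treatment, so the points carry no error.

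With library set as a covariate, 0 of the 10 genes passed an adjusted p of 0.05 with at least 1.5-fold, beside 1.54% of all genes. At an unadjusted p of 0.05 there were 4, Rela, Nfkb2, Nfkbia and Nfkbie, beside 15.1% of all genes. In this fit, edgeR's adjusted p was 0.142 for Nfkbie (log2 fold change -0.65, SE 0.17) and 0.212 for Nfkb2 (-0.41, SE 0.13). For Rela it was 0.262 (-0.24, SE 0.086) and for Nfkbia 0.316 (-0.27, SE 0.11). The median of the 10 genes was -0.24 against -0.0041 over all genes. A block for the replicate number left 3 genes with an unadjusted p under 0.05 (Relb, Nfkb2 and Nfkbie), beside 6.23% of all genes, and the smallest adjusted p was 0.611, of Nfkb2.

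Some of the 10 genes had profiles over the 6 libraries that were near each other. As a description, likeness was taken as the root mean square difference of log2 CPM after centring each gene, over 6 libraries that fall into 2 sets. Relb and Bcl3, both lower in set 1, were 0.080 apart, Rela and Nfkbiz 0.099, and Relb and Nfkb2 0.10. Nfkb1 and Nfkbib were 0.089 apart, but the profile of Nfkb1 was nearly flat, its own root mean square spread being 0.046. Nfkbia and Nfkbie had no such neighbour, the nearest of the 10 being 0.27 (Rel) and 0.22 (Rela) away. Of the 9033 genes with a mean of at least 10 CPM, the nearest outside the family were Xylt2 and Tns3 for Rela (0.028 and 0.033), Mlycd and Nod1 for Relb (0.041 and 0.051), and Capn15 and Ptms for Nfkb2 (0.053 and 0.063). For Nfkbia they were Ppan and Thop1 (0.041 and 0.067), and for Nfkbie Adamtsl5 and Arhgap23 (0.056 and 0.061). For Rel they were Cox16 and Copb2, for Nfkb1 Dedd and Lonp2, for Nfkbib Tmco3 and Nacc1, for Nfkbiz Trerf1 and Epb41l1, and for Bcl3 Mknk2 and Sephs2.

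The promoters of these genes were read for the NF-κB consensus decamer, since several of them are known targets of the pathway. RefSeq promoter windows of GRCm38.p6, from 250 bases before to 50 after each start, matched 7 of the 10 genes, and those of Relb, Nfkb1 and Nfkbiz were not used here. On either strand the decamer occurred in 5 of these 7 genes (Rel, Nfkb2, Nfkbia, Nfkbie and Bcl3), beside 5.14% of 27025 genes and 4.51% of 32851 windows. The DR5 element, the direct repeat bound by retinoic acid receptors, occurred in 0 of 7, beside 0.115% of genes. The stretches around the matches are shown 5′ to 3′ on the strand of the gene because they include the 2 genes with the lowest level relative to control, Nfkbie and Nfkb2, beside Nfkbia and Rel, whose values were nearer to control. Capitals mark the decamer, or the union of 2 decamers that overlap by all but 1 base.
Nfkbie: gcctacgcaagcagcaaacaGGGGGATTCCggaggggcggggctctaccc
Nfkb2: atcgtcacGGGAATTCCCCccctcggg
Nfkbia: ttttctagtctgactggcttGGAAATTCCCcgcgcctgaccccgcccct
Rel: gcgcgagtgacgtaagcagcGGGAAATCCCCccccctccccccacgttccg

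The Nfkbie stretch is chr17:45555574-45555623 (plus strand) with the decamer 106 to 97 bases before the start. The Nfkbia stretch is chr12:55492648-55492696 (minus strand) with the match 29 to 20 bases before the start, on the strand opposite to the gene. The Rel stretch is chr11:23771031-23771081 (minus strand). These 3 overlap no exon in GENCODE M21. The Nfkb2 stretch, chr19:46304690-46304716 (plus strand), lies in an annotated exon of another Nfkb2 transcript and of AC114539.1, and the window holds a further match 11 to 2 bases before the start. In Bcl3 the match, GGGAAGTCCC read on the gene's strand, lies 3 to 12 bases after the start. A match says only that these letters are there, and matches stood both in genes at the lowest values relative to control and in Rel, whose interval spanned 0.

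Of 92 other genes of the pathway, in 5 lists, 88 were tested and 0 passed the threshold in edgeR, with 7 at an unadjusted p under 0.05, beside 5.25% of all genes. DESeq2 called 1 of them, beside 0.983% of all genes, and also had 7 at that unadjusted p, beside 5.93%. Among the 14 IKK and upstream kinase genes, 6 were lower and 8 higher, beside 52.7% of all genes lower, and the median log2 fold change was 0.024. Ikbke, an IKK-related kinase, had 349, 320 and 340 CPM in the controls and 428, 452 and 459 CPM after RA. Every RA library was above every control, in both sets. Its log2 fold change was 0.41 (SE 0.11, edgeR unadjusted p = 0.00798, adjusted p = 0.602), and with library set as a covariate the adjusted p was 0.0324 for a log2 fold change of 0.44, which is below 1.5-fold. Map3k14, which encodes NIK, had a log2 fold change of -0.26 (SE 0.20), and Tab1, Ikbip and it had intervals that spanned 0.

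Of 18 receptor adaptor genes, 12 were lower and 6 higher (median -0.057), beside 52.7% of all genes lower. An unadjusted p under 0.05 in edgeR was reached by 0 of them, beside 5.25% of all genes. The RA libraries of Traf2, an adaptor of TNF receptors, were all below the controls (32.1 to 37.2 CPM in the controls, 24.0 to 31.7 CPM after RA), and those of Irak3, which restrains Toll-like receptor signalling, were all above (227 to 239 against 247 to 344 CPM). The edgeR adjusted p was 0.795 for both genes. Tradd and Traf3ip2, an adaptor of the IL-17 receptor, overlapped between groups, with log2 fold changes of -0.44 and 0.066.

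Of 11 genes of ubiquitin editing and feedback, 8 were lower (median -0.18), beside 52.7% of all genes. Within sets the median was 0.0027 in set 1 and -0.12 in set 2. In both sets 5 of the 11 were lower, beside 35.0% of all genes. Zc3h12a, which encodes the RNase Regnase-1, had 151, 167 and 129 CPM in the controls and 101, 95.7 and 121 CPM after RA. Rnf31, a subunit of the linear ubiquitin ligase, had 64.2, 54.4 and 62.1 CPM in the controls and 49.0, 37.9 and 51.7 CPM after RA. In the list, 4 genes, these 2 among them, were lower and 1, N4bp1, was higher in every RA library than in every control, beside 12.6% of all genes without overlap. Their log2 fold changes were -0.49 (SE 0.15, edgeR adjusted p = 0.746) and -0.38 (SE 0.15, adjusted p = 0.795). Tnfaip3, which encodes A20, was at 0.17 (SE 0.14), Usp18 at -0.49 (SE 0.31) and N4bp1 at 0.076 (SE 0.095).

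Of 10 IκB-like and nuclear cofactor genes, 4 were lower and 6 higher (median 0.075), beside 52.7% of all genes lower. Pdlim2, a nuclear ubiquitin ligase that acts on p65, had 24.9, 27.5 and 24.5 CPM in the controls and 19.6, 13.7 and 16.8 CPM after RA. The groups did not overlap and the difference was in the same direction in both sets (-0.74 and -0.56). The log2 fold change was -0.62 (SE 0.17, edgeR unadjusted p = 0.00876, adjusted p = 0.617). Nfkbil1 was at -0.40 (SE 0.23), Nkrf at 0.32 (SE 0.26) and Kpna2 at 0.60 (SE 0.34).

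**Figure D5:**
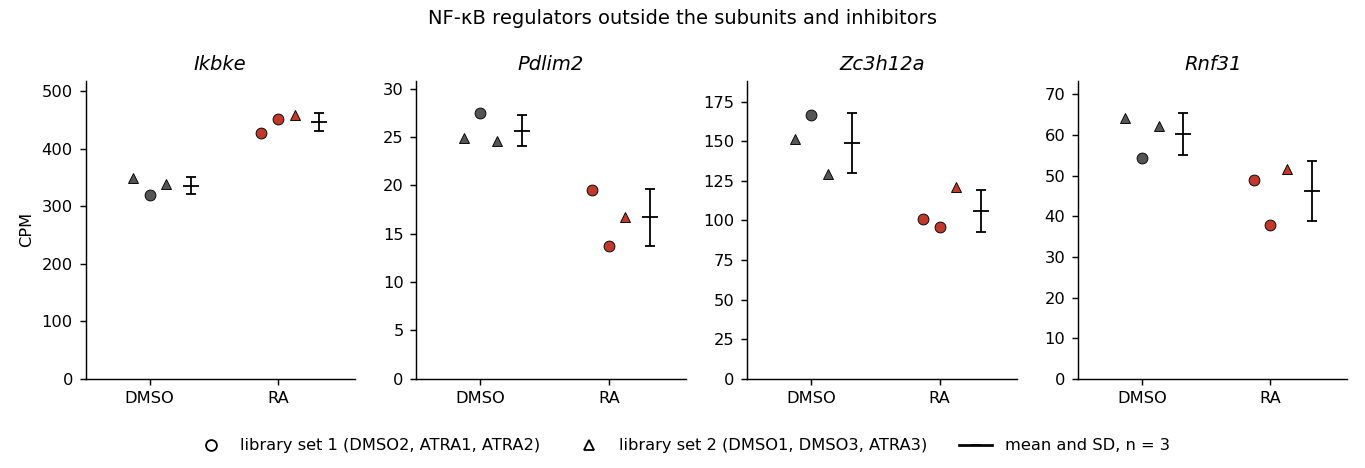
CPM (vertical axes, from 0) of Ikbke, Pdlim2, Zc3h12a and Rnf31, the genes outside the subunits, inhibitors and target genes with an edgeR unadjusted p under 0.05, in each library, with circles for set 1, triangles for set 2, and the mean and SD of 3 libraries as bars. The RA points of Ikbke lie above all DMSO points and those of the other genes lie below them, in both sets.

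Of 39 NF-κB target genes, 35 were tested (Ccl20, Il1a, Csf2 and Csf3 were below the filter). Of these 26 were lower and 9 higher, beside 52.7% of all genes lower. The median was -0.25, against -0.018 over all genes tested. In edgeR without a covariate 0 passed the threshold. With library set as a covariate 7 passed, 5 of them lower and 2 higher, beside 1.54% of all genes in that fit, and no gene of the other lists did. Ptx3, which encodes a soluble pattern recognition protein, had between 20.4 and 101 CPM in the controls and 18.0, 11.4 and 3.27 CPM after RA. Its log2 fold change in that fit was -2.84 (edgeR adjusted p = 0.00227). The cytokine Csf1 had 117, 311 and 123 CPM in the controls and 148, 120 and 54.9 CPM after RA (-1.18, edgeR adjusted p = 0.00274). These genes overlapped or nearly met between the pooled groups, yet within each set the RA libraries were below the controls. The summed mesenchymal markers were also lower after RA within both sets (3905 CPM in the control of set 1 against 2993 and 1981, and 2003 and 2170 CPM in those of set 2 against 1507). Most of that sum was Col1a1 and Col1a2, and the other 12 markers summed to 867 CPM against 944 and 853 in set 1, and 598 and 678 CPM against 695 in set 2. Of the 14 markers 6 were lower in both sets and 3 (Cxcl12, Pdgfra and Lepr) higher. The part of these markers in the target gene values was not tested. Il6, Ccl7 and Il1rn were also lower in that fit (-2.19, -1.33 and -0.92). Without the covariate their log2 fold changes were -1.31 (SE 1.30), -0.30 (SE 1.22) and -0.57 (SE 0.37). DMSO2, the lone control of set 1, had 136 CPM of Ccl7 against 12.7 and 12.9 CPM in the other controls. Within set 2, which does not hold DMSO2, the log2 differences were -2.87 for Ptx3, -1.76 for Ccl7, -1.58 for Il6, -1.13 for Csf1 and -1.10 for Il1rn, against -2.81, -1.10, -2.14, -1.22 and -0.76 within set 1. ATRA3, the lone RA library of set 2, had 0.136 CPM of Il6, below the worth of 3 counts. The metalloproteinases Mmp13 and Mmp9 were higher (1.19 and 0.88). For them edgeR without the covariate gave 1.49 (SE 0.31, adjusted p = 0.353) and 1.40 (SE 0.56, adjusted p = 0.795). Mmp13 was higher in every RA library than in every control. At an unadjusted p under 0.05 in that fit, 1 target gene (Ptx3) was lower and 2 (Mmp13 and Mmp9) were higher, beside 5.25% of all genes. The lists were drawn up with earlier results of these counts known, and the counts per list are descriptions.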

How the data were processed

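The deposited tables hold the number of reads on each gene, as raw counts without normalization, in 3 DMSO and 3 ATRA libraries. The submitters' processing notes name Bowtie2 2.2.3 and mm10, and the counting program, annotation and use of strand are not given in the sources used here. Groups and replicate numbers came from the sample labels. The NF-κB genes and all lists were chosen with earlier results of these data known, as were the library sets.

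Counts of 25722 genes were fitted in R 4.3.3 with edgeR 4.0.16 (TMM, filterByExpr, quasi-likelihood F test of 3 against 3 libraries, Benjamini-Hochberg adjustment over 13842 genes), after tests on simulated data. A call required an adjusted p under 0.05 and at least 1.5-fold. Log2 CPM used a prior count of 2. Genes named outside the family had an unadjusted p under 0.05 or were the 2 with the largest change in each direction in their list, or were the 2 nearest profiles. Those called with the set covariate, and single marker genes, were named after their values were seen. Alternatives were DESeq2 1.42.0, other scaling and filters, the replicate block, library set as covariate and leaving out each library. TPM used exon lengths of GENCODE M21 (GRCm38). No 2 libraries of a group agreed within sampling noise, so all were kept. Chi-square over its degrees of freedom was 4.88 for DMSO1 and DMSO3, both of set 2. It was 30.6 for ATRA1 and ATRA2, both of set 1, and up to 91.8 for the pairs that crossed the sets. Names of 24 genes that had turned into dates were restored. Intervals of log2 fold changes were built from the standard errors of the edgeR fit. They include the spread between these libraries, which may be partly technical, and not counting error alone.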

Additional observations from a re-analysis of the deposited data

How the results depend on the processing

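Over 13 alternative settings and 10 genes, 127 of 130 log2 fold changes kept their sign and stayed short of the threshold, the smallest adjusted p being 0.142, with library set as a covariate. The 3 that changed sign were those of Rel without ATRA2 (-0.017; range over single libraries left out -0.017 to 0.20) and of Nfkbia without DMSO2 (0.28) and without ATRA3 (0.062; range -0.26 to 0.28), and the cause was not tested. Leaving out 1 library gave -0.76 to -0.24 for Relb, -0.80 to -0.23 for Bcl3 and -0.54 to -0.15 for Nfkbiz. Over all genes, 6 were called, against 20 with no filter, 136 in DESeq2, 213 with library set as a covariate and 0 to 6 with 1 library left out. Of the other pathway genes 0 were called, against 1 in DESeq2 and 7 with library set as a covariate. With library totals alone, 1 of the 10 genes (Nfkbie) in place of 2 did not overlap between groups. The ratio of noncanonical to canonical subunits was 0.563 in DMSO and 0.443 in ATRA with the longest transcript as length, by construction through Nfkb1. The replicate block called 0 of the 10 genes and 4 of all genes. Same-numbered libraries had correlations of their deviations of -0.51, 0.343 and 0.572 for replicates 1, 2 and 3. DMSO1 and ATRA1 lie in different library sets, while the other same-numbered libraries share a set. These values mix pairing with the sets, so they cannot decide whether the numbers pair the libraries. Counting error was largest for Nfkbie, which had 77 to 185 counts in a library.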
